A study of Bos taurus with 29 samples.

Results

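The genes described here encode the nuclear pore complex and the receptors that carry cargo through it, in single oocytes of cattle. The members were chosen by symbol alone: every row whose name begins with NUP, KPNA, KPNB, IPO, XPO or TNPO followed by a digit. There were 45 such genes among the 13502 listed, 22 of them pore proteins (nucleoporins) and 23 transport receptors. A filter on low values, at least 1 CPM (a gene's reads per 1000000 reads of its library) in at least 6 oocytes, kept 44 of the 45 and 11852 genes in all. The member that did not pass was the import receptor gene IPO8, at 0 to 1.44 CPM in GV, 0 to 1.18 CPM in IVM and 0.0264 to 1.68 CPM in CNP_IVM oocytes.

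The oocytes, labelled wild type, came from FSH-treated donor cattle and belonged to 3 groups. GV oocytes (7 libraries) were denuded when collected, at the germinal vesicle stage, with the nuclear envelope intact. IVM oocytes (8 libraries, titled Ctrl_IVM) were matured for 22 h in medium with EGF and FSH. CNP_IVM oocytes (7 libraries) were first held for 6 h in medium that lacked EGF and held the C-type natriuretic peptide at 200 nM, and then for 22 h in maturation medium, 28 h in all. Both matured groups were judged by the polar body to have reached metaphase II. Because no group was held for 6 h without the peptide, peptide and added culture time cannot be told apart. No donor or culture is named, and some oocytes may come from the same animal. Each group therefore counted as 1 sample and no test was made: what follows describes these oocytes.

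The nuclear pore complex is built from a membrane-anchored inner ring, outer rings made of the Y complex, a central channel lined with proteins rich in phenylalanine-glycine (FG) repeats, filaments on the cytoplasmic face and a basket on the nuclear face. Importin alpha proteins recognise nuclear localisation signals and are carried in by importin beta, while exportins and other beta-family receptors bind cargo directly, with direction set by the GTPase Ran. The envelope and its pores come apart when meiosis resumes and are rebuilt around the pronuclei after fertilisation, from proteins and messenger RNA that the oocyte has stored. KPNA7 is the importin alpha that is typical of oocytes and early embryos.

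Libraries held 20159662 to 39340040 reads, 97.1 to 97.6% of them in listed genes. All 10 oocyte markers examined, GDF9 and ZP3 among them, passed the filter. Cumulus and granulosa markers summed to 611 to 908 CPM in GV, 313 to 592 CPM in IVM and 226 to 293 CPM in CNP_IVM oocytes. Of those 12 markers 11 were listed in the table and 7 passed the filter, and FSHR and CYP11A1 were at 0 in 12 and 9 of the 22 oocytes. Blood and immune markers (3 of 7 in the table, 1 past the filter) summed to 13.04 to 65.6, 0.496 to 6.02 and 0 to 3.33 CPM in the same order. HBA was at 0 in 0 GV, 5 IVM and 2 CNP_IVM oocytes, and CD68 in 1, 4 and all 7. Endothelial markers (2 of 3 in the table, 1 past the filter) summed to 160.1 to 336, 4.45 to 42.1 and 3.53 to 25.5 CPM. These sums were lower in both matured groups. Those of the cumulus and endothelial lists rested largely on 1 gene each, except the cumulus sum of CNP_IVM oocytes (mean 253 CPM). STAR had means of 657 CPM, 316 CPM and 93.9 CPM in the cumulus list and VWF of 225 CPM, 21.1 CPM and 11.2 CPM in the endothelial list. Other markers went the other way, HAS2 with means of 16.3 CPM, 77.1 CPM and 118 CPM, and PECAM1, near 0, with 0.139 CPM, 0.523 CPM and 0.192 CPM. The part of other cells in the differences below was not tested.

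One library stood apart. The title of GV replicate 9 puts it at the GV stage, while its treatment field says that it was matured in vitro; the title was followed. It had 9381 genes at 1 CPM or more, against 11311 to 11798 in the other 6 GV oocytes. For 19 of the 44 members it lay below each of the other 21 oocytes of the 3 groups, and for 7 it lay above each of them (IPO7, KPNA4, KPNB1, NUP50, NUP85, TNPO3 and XPO6). Values without it are given beside the members and lists whose 2-fold count it changes. IVM replicate 8 was the highest IVM oocyte for 18 of 44 members.

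Differences are given as log2 differences between group means, each with 1 CPM added, which understates those of low genes; a gene is counted when it is at least 2-fold apart on that scale. Levels are given as the median oocyte with the range of the group in parentheses. Reverse transcription started at poly(A) tails and each level is relative to its library, so the amount of a transcript, the length of its tail and the rest of the library cannot be told apart. Levels were not corrected for gene length and are not compared between genes.

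Maturation went with higher levels of many pore genes and with mixed levels of the receptors. The summed level of the 45 genes was 6856 ± 1023 CPM (SD, n = 7) in GV, 13565 ± 1627 CPM (SD, n = 8) in IVM and 9968 ± 1315 CPM (SD, n = 7) in CNP_IVM oocytes. Each IVM oocyte (11619 to 16532 CPM) and each CNP_IVM oocyte (8184 to 11628 CPM) lay above each GV oocyte (4865 to 7970.5 CPM). For the 22 pore genes the sums were 2969.7 ± 612 CPM (SD, n = 7), 7848 ± 655 CPM (SD, n = 8) and 6645 ± 1192 CPM (SD, n = 7) in the same order. For the 23 receptor genes they were 3886 ± 588 CPM (SD, n = 7), 5717 ± 1294 CPM (SD, n = 8) and 3323 ± 416 CPM (SD, n = 7). Sums follow their highest genes. Means of KPNA7 (2251, 4749 and 2643 CPM) and KPNA2 (1341, 609 and 381 CPM) made up most of the receptor sums. The 11 importin beta and transportin genes summed to means of 165, 166 and 120 CPM, and the 5 exportins to 61.7, 70.3 and 57.7 CPM. Of the pore sums, NUP35 (822, 1829 and 2228 CPM) and NUP88 (636, 2116 and 1461 CPM) were the largest parts. Receptor sums of GV oocytes (3175 to 4895 CPM) overlapped those of both matured groups, while each CNP_IVM oocyte (2786 to 4045 CPM) lay below each IVM oocyte (4099.8 to 7923 CPM).

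In IVM against GV, 17 of 44 members were at least 2-fold higher, 5 were lower by as much, and 22 lay between. Over all 11852 genes the shares were 15.9% higher and 33% lower, against 38.6% and 11.4% of members. The median log2 difference of the members was 0.39, while that of all genes was -0.28. Of the pore genes 12 of 22 were higher and 2 lower by at least 2-fold, and of the receptor genes that passed the filter 5 of 22 and 3 of 22. The counts of members without GV replicate 9 were 17 and 4, with a median of 0.68, where all genes gave 16.4% and 31.7%. Pore genes were then at 11 higher and 2 lower, and receptor genes at 6 higher and 2 lower.

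In CNP_IVM against the same GV oocytes, 12 members passed 2-fold upward, 12 passed it downward and 20 lay between. The shares of all genes were 15.3% higher and 42% lower, against 27.3% of members in each direction. The members' median was 0.12 and that of all genes -0.61. Pore genes were higher in 8 of 22 and lower in 4 of 22, and receptor genes in 4 of 22 and 8 of 22. The counts without GV replicate 9 were 13 higher and 9 lower, with a median of 0.23, where all genes gave 14.9% and 40.5%. Pore genes then stayed at 8 higher and 4 lower, while receptor genes were at 5 higher and 5 lower. These contrasts share their GV oocytes.

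Scaling moved these counts. Quantile normalization shifted the median of all genes from -0.28 to 0.15 in IVM against GV and from -0.61 to 0.14 in CNP_IVM against GV. It moved the share of higher genes among all genes past 2-fold from 32.4% to 52.2% and from 26.8% to 52.6%. The members then numbered 20 higher and 4 lower in the first contrast and 21 higher and 4 lower in the second. Relative to the median of all genes, the members' median stood at 0.67 as deposited and 0.80 after quantile normalization in IVM against GV, and at 0.73 and 0.75 in CNP_IVM against GV. In the second contrast it put under 2-fold the lower values of NUP205 (-0.90) and NUP50 (-0.58). Those of XPO4 (-0.55), IPO9 (-0.36), IPO13 (-0.54), TNPO3 (-0.37) and KPNA4 (-0.21) also came under 2-fold. It turned the sign of XPO6 (0.04) and put under 2-fold the higher value of NUP88 (0.97). Pore genes that it put past 2-fold upward were NUP107 (1.10), NUP43 (1.37) and NUP214 (1.63). Receptor genes put past it upward were IPO7 (1.19), IPO11 (1.47), KPNA6 (1.23), KPNB1 (1.52), TNPO1 (1.28), XPO5 (1.52) and XPO7 (1.48). In the first contrast KPNA5 (1.53), NUP58 (1.33), NUP93 (1.05), TNPO2 (1.16) and XPO7 (1.66) passed 2-fold upward. There KPNA7 (0.88), NUP35 (0.99) and KPNA4 (-0.73) came under 2-fold.

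**Figure D1:**
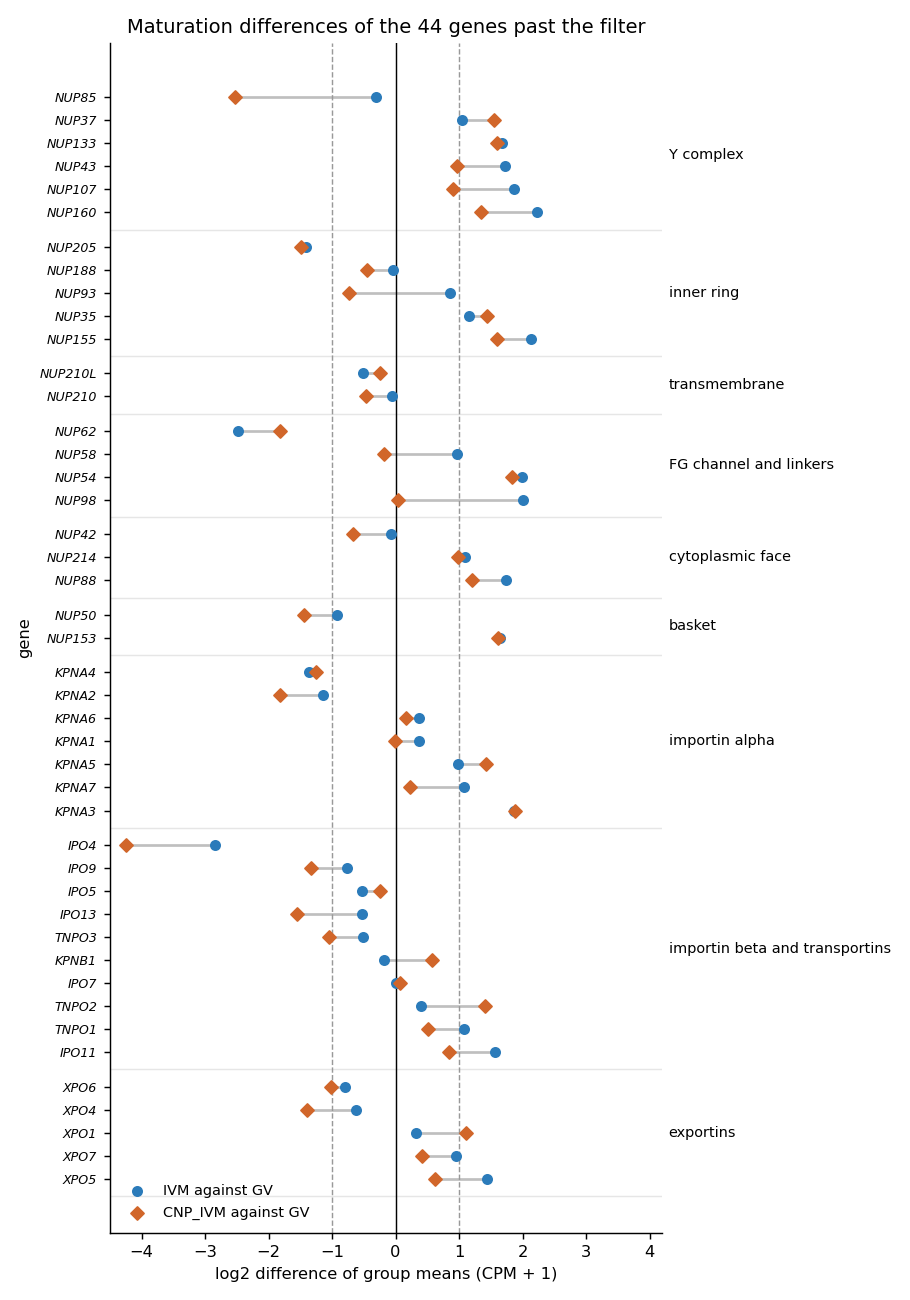
Each row is 1 of the 44 genes past the filter, grouped by role; the horizontal axis is the log2 difference of group means (CPM + 1), with circles for IVM against GV, diamonds for CNP_IVM against GV and dashed lines at 2-fold. NUP160 lies farthest right in IVM against GV (2.23) and IPO4 farthest left in both contrasts (-2.85 and -4.24).

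The ranges of oocytes were also compared, here and below on the deposited scale unless stated. In IVM against GV, each IVM oocyte lay above each GV oocyte for 13 of 44 members and below for 2 of 44, against 11.5% and 19.9% of all genes. In CNP_IVM against GV, the ranges lay apart upward for 10 of 44 members and downward for 7 of 44, against 12.9% and 28% of all genes. Both downward shares of members were thus below those of all genes, and the upward shares above them. Without GV replicate 9, members numbered 14 and 4 in IVM against GV, where all genes gave 14.01% and 25.6%, and 10 and 9 in CNP_IVM against GV, where all genes gave 15.1% and 36.1%.

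Most of the Y complex, the scaffold of the outer rings, was at least 2-fold higher in IVM oocytes, and its NUP85 subunit was not. Summed over 6 genes the level was 634 ± 128 CPM (SD, n = 7) in GV, 1614 ± 114 CPM (SD, n = 8) in IVM and 1323 ± 239 CPM (SD, n = 7) in CNP_IVM oocytes. In IVM against GV 5 of the 6 were at least 2-fold higher and 0 lower, where all genes gave 15.9% and 33%. In CNP_IVM against GV 3 were higher and 1 lower, where all genes gave 15.3% and 42%. NUP107 was at 155 CPM (range 38.3 to 169) in GV, 537 CPM (range 368 to 604) in IVM and 268 CPM (range 157 to 363) in CNP_IVM oocytes. As deposited, IVM oocytes were the highest without overlap with either group, by a small margin from CNP_IVM (368 against 363 CPM). The log2 difference from GV was 1.87 for IVM and 0.90 for CNP_IVM, the latter past 2-fold (1.08) with median-ratio scaling. CNP_IVM oocytes overlapped the GV range only at their lowest, 157 CPM. NUP160 was at 34.97 CPM (range 19.8 to 46.005), 153 CPM (range 84.99 to 277) and 82.9 CPM (range 55.1 to 132) in the same order, with both matured groups above every GV oocyte and log2 differences of 2.23 and 1.35. That for IVM without GV replicate 9 was 2.14.

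NUP133 and NUP43, of the same scaffold, followed. NUP133 was at 63.5 CPM (range 12.5 to 78.8) in GV, 181 CPM (range 142 to 248) in IVM and 178 CPM (range 148 to 219) in CNP_IVM oocytes, again with no overlap between GV and either matured group. NUP43 was at 57.4 CPM (range 18.2 to 63.5), 177 CPM (range 133 to 214) and 117 CPM (range 62.4 to 148). All IVM oocytes stood above the GV range, while the lowest CNP_IVM oocyte, at 62.4 CPM, fell within it. The log2 differences of NUP133 were 1.68 and 1.60, and those of NUP43 1.73 and 0.97, the last past 2-fold (1.16) with median-ratio scaling. NUP37 was at 228 CPM (range 51.2 to 339), 461 CPM (range 252 to 690.1) and 642 CPM (range 503 to 836). Its IVM oocytes overlapped the GV range and its CNP_IVM oocytes did not. The NUP37 log2 differences were 1.04 and 1.55, and the first was 0.87, under 2-fold, without GV replicate 9. It was also under 2-fold without GV replicate 7 or IVM replicate 5, 6 or 7.

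NUP85, another Y complex subunit, went the other way in CNP_IVM oocytes. It was at 92.8 CPM (range 73.1 to 252) in GV, 103 CPM (range 32.5 to 154) in IVM and 20.1 CPM (range 9.69 to 31.4) in CNP_IVM oocytes. The highest CNP_IVM oocyte lay below the lowest of both other groups, by a small margin from the lowest IVM oocyte (31.4 against 32.5 CPM). The log2 difference from GV was -2.53 for CNP_IVM and -0.31 for IVM, and the former was -2.23 without GV replicate 9, which at 252 CPM was the highest of all 22 oocytes. Summed over the oocytes of a group, NUP85 reads came to 124 CPM (interval 123 to 125) in GV, 101 CPM (interval 99.5 to 102) in IVM and 19.9 CPM (interval 19.4 to 20.5) in CNP_IVM, with exact 95% Poisson intervals that cover the counting of reads only.

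The inner ring, which holds the pore to the membrane, was divided. NUP155 was at 164 CPM (range 68.1 to 214) in GV, 689 CPM (range 554 to 877) in IVM and 457 CPM (range 353 to 681) in CNP_IVM oocytes. NUP35, which binds the membrane, was at 810.5 CPM (range 277 to 1128), 1770.3 CPM (range 1227 to 2556) and 2309 CPM (range 1524 to 3007). For both genes all oocytes of both matured groups stood above all GV oocytes as deposited. For NUP35 the lowest IVM oocyte, replicate 9, and the highest GV oocyte, replicate 6, had median-ratio size factors of 1.25 and 1.02. Levels divided by these overlap. The log2 differences were 2.13 and 1.60 for NUP155 and 1.15 and 1.44 for NUP35. Quantile normalization put NUP35 in IVM at 0.99, just under 2-fold.

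The large scaffold gene NUP205 was lower. It was at 58.4 CPM (range 44.8 to 80.6) in GV, 21.02 CPM (range 14.8 to 30.9) in IVM and 20.2 CPM (range 12.1 to 35.7) in CNP_IVM oocytes, and both matured groups lay below every GV oocyte. Its log2 differences were -1.41 and -1.49. The related scaffold gene NUP188 was at 14.8 CPM (range 0 to 27.3), 14.96 CPM (range 4.71 to 22.3) and 8.76 CPM (range 6.06 to 21.9), and the 3 ranges overlapped. NUP93, which links inner ring and channel, was at 95.002 CPM (range 79.7 to 126) in GV, 172 CPM (range 65.5 to 423) in IVM and 62.2 CPM (range 29.5 to 81.02) in CNP_IVM oocytes. Its IVM range was wide and spanned the whole GV range, and neither matured group was 2-fold from GV (0.86 and -0.74). Quantile normalization put the IVM value of NUP93 at 1.05, past 2-fold.

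Transmembrane members were close to the limit of the filter. NUP210 was at 0 to 2.499 CPM, 0 to 4.56 CPM and 0.0512 to 1.18 CPM, and NUP210L at 0 to 2.43 CPM, 0.102 to 1.71 CPM and 0.238 to 1.68 CPM, in GV, IVM and CNP_IVM oocytes. The ranges overlapped at levels close to the added 1 CPM.

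**Figure D2:**
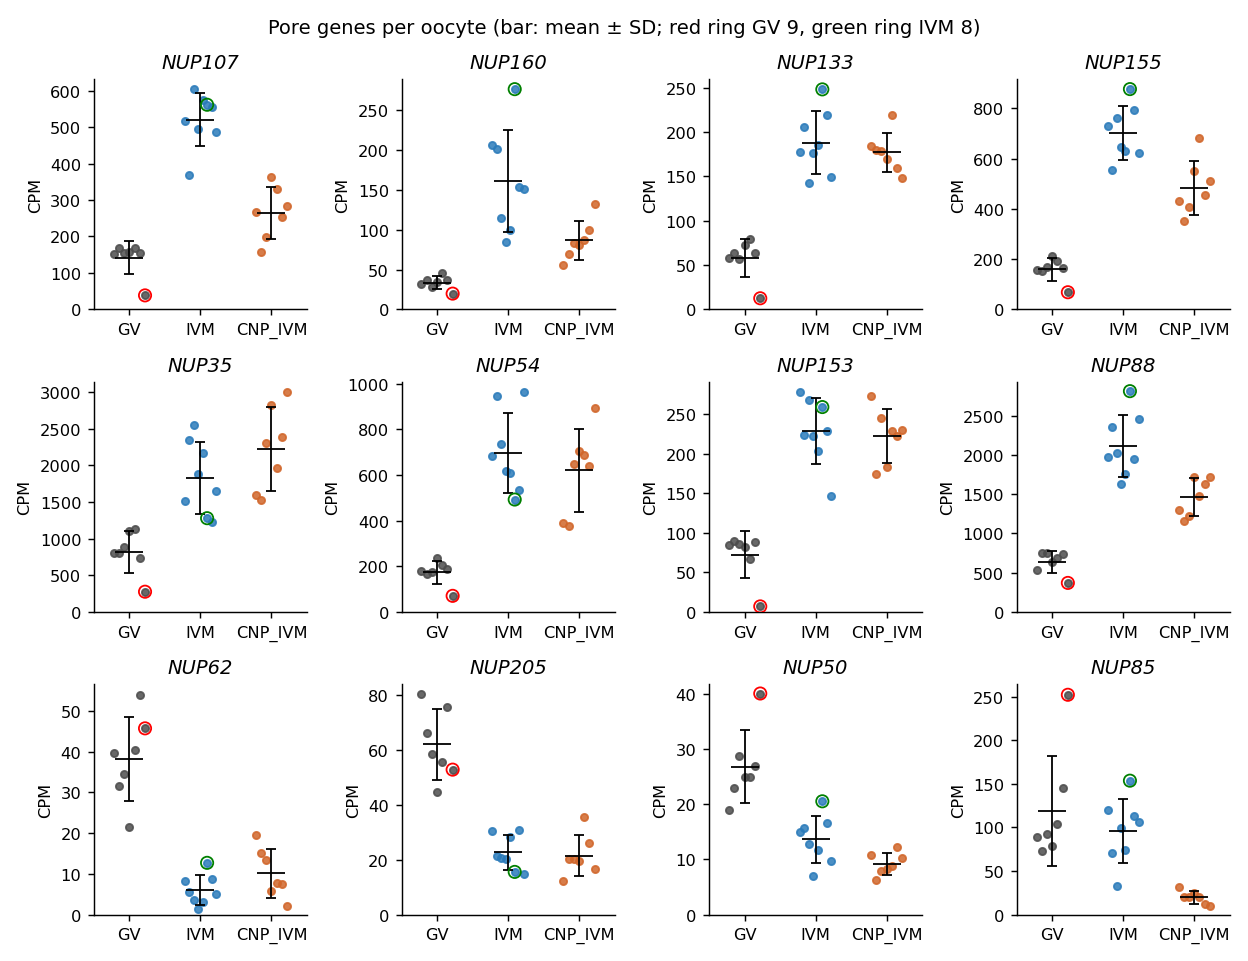
CPM of 12 pore genes in each oocyte (vertical axis, linear from 0) by group (horizontal axis); each point is 1 oocyte, bars are mean ± SD between oocytes, and rings mark GV replicate 9 (red) and IVM replicate 8 (green). NUP133, NUP155 and NUP54 are above GV in all oocytes of both matured groups, NUP205 and NUP62 below, and NUP85 is lowest in the CNP_IVM oocytes (9.69 to 31.4 CPM).

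The FG proteins of the central channel, which form its permeability barrier, did not move together. NUP54 was at 179.6 CPM (range 70.7 to 235) in GV, 649 CPM (range 492 to 964) in IVM and 649.7 CPM (range 376 to 891) in CNP_IVM oocytes. NUP62, its partner in the channel, was at 39.6 CPM (range 21.6 to 53.9), 5.38 CPM (range 1.296 to 12.7) and 7.75 CPM (range 2.04 to 19.5). NUP54 was thus above and NUP62 below the GV range in all oocytes of both matured groups. The log2 differences were 1.99 and 1.83 for NUP54 and -2.48 and -1.82 for NUP62. NUP58, the remaining subunit of this trio, was at 24.8 CPM (range 18.3 to 51.2), 46.6 CPM (range 22.6 to 102) and 23.6 CPM (range 19.3 to 27.7), with overlap throughout and log2 differences of 0.96 and -0.18. The IVM value of NUP58 was past 2-fold with quantile normalization (1.33) and without GV replicate 9 (1.19), where the CNP_IVM value was 0.05.

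NUP98, a mobile FG protein whose precursor also yields a Y complex subunit, was higher in IVM oocytes, with a wide range. It was at 37.3 CPM (range 20.9 to 120.4) in GV, 151 CPM (range 54.5 to 489.8) in IVM and 49.8 CPM (range 39.1 to 63.6) in CNP_IVM oocytes. The GV range reached into the IVM range through GV replicate 9 alone, at 120.4 CPM, where the other 6 GV oocytes were at 20.9 to 46.1 CPM. The log2 difference of IVM from GV was 2.01, and 2.42 without GV replicate 9. CNP_IVM stood at 0.03 from GV.

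On the cytoplasmic face, NUP88 and NUP214 anchor the filaments and NUP42 takes part in messenger RNA export. NUP88 was at 684 CPM (range 369.9 to 754) in GV, 1996 CPM (range 1626 to 2810.5) in IVM and 1482 CPM (range 1153 to 1721) in CNP_IVM oocytes. Both matured groups were above the GV range, with log2 differences of 1.73 and 1.20. NUP214 was at 20.2 CPM (range 0 to 27.3), 41.04 CPM (range 19.9 to 58.3) and 35.1 CPM (range 20.5 to 48.5), overlapping throughout. The IVM difference of NUP214, 1.10, was 0.89 without GV replicate 9, where no read was counted, and also under 2-fold without IVM replicate 1. NUP42 was at 143 CPM (range 78.6 to 171), 125 CPM (range 87.98 to 178) and 84.3 CPM (range 57.7 to 104), with log2 differences of -0.07 and -0.68. Its CNP_IVM range lay below the other 6 GV oocytes (118 to 171 CPM) and overlapped only GV replicate 9.

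The 2 basket members diverged. NUP153, the FG protein that anchors the basket, was at 84.5 CPM (range 7.06 to 89.02) in GV, 226 CPM (range 146 to 277) in IVM and 228 CPM (range 174 to 273) in CNP_IVM oocytes. NUP50, which binds importin alpha and helps release its cargo, was at 25.003 CPM (range 18.8 to 40.03), 13.8 CPM (range 7.05 to 20.5) and 8.84 CPM (range 6.33 to 12.2). NUP153 was above the GV range in both matured groups (1.65 and 1.61), and NUP50 was below it in CNP_IVM oocytes (-1.45). In IVM the NUP50 difference was -0.92, with overlap, and -1.03, past 2-fold, without IVM replicate 8.

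Among the importin alpha genes, KPNA7 was higher and KPNA2 lower after conventional maturation. KPNA7 was at 1951 CPM (range 1659 to 3236) in GV, 4605 CPM (range 2931 to 7046) in IVM and 2661 CPM (range 2177 to 3342) in CNP_IVM oocytes. Only 1 IVM oocyte, at 2931 CPM, fell within the GV range, and 6 of 7 CNP_IVM oocytes did. Its log2 difference from GV was 1.08 for IVM and 0.23 for CNP_IVM. The IVM value was 0.97 without IVM replicate 8 and 0.88 with quantile normalization, both under 2-fold. With quantile normalization the CNP_IVM value turned to -0.13. Summed over the oocytes of a group, KPNA7 reads came to 2273 CPM (interval 2267 to 2279) in GV, 4905 CPM (interval 4897 to 4914) in IVM and 2646 CPM (interval 2639.9 to 2652) in CNP_IVM.

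KPNA2, a widely expressed importin alpha, was at 1498 CPM (range 735 to 1665) in GV, 589 CPM (range 460.4 to 839) in IVM and 389.7 CPM (range 223 to 486) in CNP_IVM oocytes. CNP_IVM oocytes were all below the GV range. IVM oocytes overlapped it only through GV replicate 9, at 735 CPM, the other 6 GV oocytes being at 997 to 1665 CPM. The log2 differences were -1.14 and -1.81, or -1.24 and -1.92 without that oocyte. Of all reads counted to the 7 importin alpha genes, KPNA7 took 60.9 ± 11.04% (SD, n = 7) in GV, 85.7 ± 5.32% (SD, n = 8) in IVM and 83.8 ± 4.38% (SD, n = 7) in CNP_IVM oocytes. KPNA2 took 37.2 ± 10.9% (SD, n = 7), 11.9 ± 4.69% (SD, n = 8) and 12.3 ± 3.85% (SD, n = 7). These shares of reads follow single genes across groups and are not molar amounts.

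The importin alpha genes are paralogs, and how reads that fit several of them were counted is not given in the sources used here. KPNA3 was at 12.5 CPM (range 0.627 to 18.1) in GV, 48.4 CPM (range 32.6 to 53.5) in IVM and 48.5 CPM (range 25.02 to 59.4) in CNP_IVM oocytes, with no overlap of GV and either matured group and log2 differences of 1.87 and 1.88. KPNA5 was at 10.3 CPM (range 7.61 to 20.2), 27.9 CPM (range 15.8 to 35.5) and 42.1 CPM (range 18.1 to 45.4). Its ranges overlapped, and its log2 difference was 0.99 in IVM, at the edge of 2-fold (1.04 without GV replicate 9), and 1.43 in CNP_IVM. KPNA1 (0.38 and -0.01) and KPNA6 (0.37 and 0.16) were under 2-fold in both. Quantile normalization put the CNP_IVM value of KPNA6 at 1.23, past 2-fold. KPNA4 rested on 1 library: GV replicate 9 held 22.2 CPM while the other 6 GV oocytes held 0.25003 to 1.44 CPM. Its log2 differences of -1.37 and -1.25 were -0.02 and 0.10 without that oocyte.

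**Figure D3:**
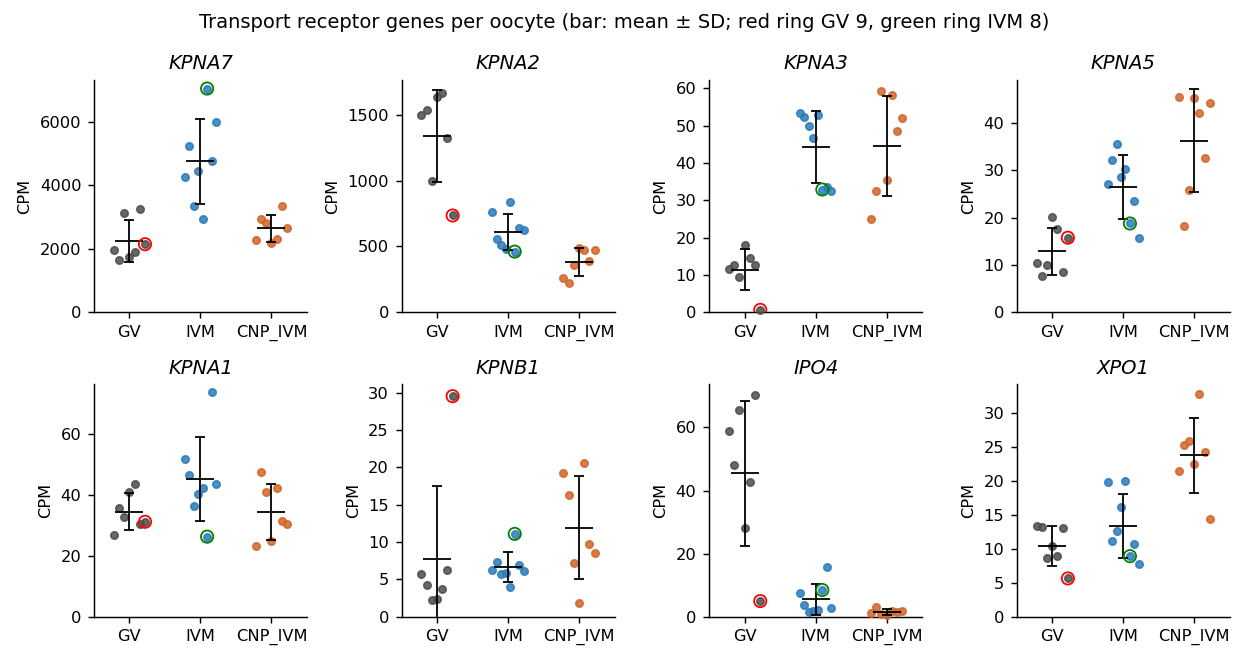
CPM of 8 receptor genes in each oocyte (vertical axis, linear from 0) by group (horizontal axis); each point is 1 oocyte, bars are mean ± SD between oocytes, and rings mark GV replicate 9 (red) and IVM replicate 8 (green). KPNA7 is highest in IVM oocytes, KPNA2 and IPO4 are low in both matured groups, and the KPNB1 mean of GV oocytes rests on GV replicate 9 at 29.5 CPM.

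KPNB1, the importin beta that carries importin alpha and its cargo, was at 4.201 CPM (range 2.23 to 29.5) in GV, 6.15 CPM (range 3.92 to 11.1) in IVM and 9.79 CPM (range 1.85 to 20.6) in CNP_IVM oocytes. The 3 ranges overlapped, with log2 differences of -0.19 and 0.57. Without GV replicate 9 these were 0.60 and 1.35, so that the first changed sign and the second passed 2-fold. The sign of the first also turned with quantile normalization (0.49) and with group medians (0.46). The second was past 2-fold with both, at 1.52 and 1.05.

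IPO4, a receptor for histones and ribosomal proteins, was at 48.1 CPM (range 4.93 to 70.2) in GV, 3.24 CPM (range 1.48 to 15.7) in IVM and 1.39 CPM (range 0.385 to 2.96) in CNP_IVM oocytes. It had the lowest log2 differences of the members, -2.85 and -4.24. CNP_IVM oocytes were below every GV oocyte, and IVM oocytes overlapped only GV replicate 9, at 4.93 CPM. IPO11, an import receptor of ubiquitin-conjugating enzymes, was at 23.2 CPM (range 0 to 36.3), 64.4 CPM (range 49.7 to 82.97) and 37.1 CPM (range 23.6 to 60.8). All IVM oocytes exceeded the GV range, at a log2 difference of 1.57, while CNP_IVM stood at 0.84 with overlap. Without GV replicate 9, where no IPO11 read was counted, these were 1.36 and 0.63.

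Transportins carry RNA-binding proteins and splicing factors. TNPO1 was at 16.6 CPM (range 13.9 to 20.97) in GV, 35.8 CPM (range 27.7 to 58.8) in IVM and 25.6 CPM (range 16.9 to 38.3) in CNP_IVM oocytes, the IVM range standing wholly above that of GV (1.08) and the CNP_IVM range overlapping it (0.52). Without IVM replicate 9 the IVM value was 0.98. TNPO3, the receptor of serine/arginine-rich splicing factors, was at 37.9 CPM (range 27.3 to 60.5), 27.4 CPM (range 20.6 to 31.6) and 17.6 CPM (range 10.7 to 28.7), with overlap and log2 differences of -0.52 and -1.05. The second was -0.91, under 2-fold, without GV replicate 9, and also came under 2-fold without CNP_IVM replicate 2 or 3. TNPO2 was at 0 to 3.36 CPM, 1.04 to 5.32 CPM and 3.33 to 12.7 CPM, with log2 differences of 0.40 and 1.41.

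The remaining import receptors had few reads. IPO9 had medians of 14.5 CPM, 6.96 CPM and 6.09 CPM in GV, IVM and CNP_IVM oocytes, and IPO13 of 5.84 CPM, 2.66 CPM and 1.21 CPM. Their log2 differences from GV in CNP_IVM were -1.33 and -1.55, and in IVM both were under 2-fold (-0.77 and -0.53). Without IVM replicate 8 the IVM values were -1.10 and -1.12, both past 2-fold. Without GV replicate 9 each CNP_IVM oocyte lay below each GV oocyte for IPO13 (-1.73). IPO5 and IPO7 were under 2-fold in both contrasts, with medians between 1.90 and 6.69 CPM across groups. IPO7, at 0.01 and 0.08, was at 0.76 and 0.82 without GV replicate 9, which held 14.1 CPM. Quantile normalization put the CNP_IVM value of IPO7 at 1.19, past 2-fold.

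The exportin list held 5 genes. XPO1, which exports proteins with a leucine-rich signal, was at 10.4 CPM (range 5.64 to 13.4) in GV, 11.9 CPM (range 7.82 to 20.04) in IVM and 24.3 CPM (range 14.4 to 32.9) in CNP_IVM oocytes. All CNP_IVM oocytes lay above all GV oocytes, at a log2 difference of 1.11 (0.90 with 5 CPM added), while IVM oocytes overlapped GV (0.33). XPO5, the exporter of microRNA precursors, was at 9.69 CPM (range 0 to 14.4), 23.4 CPM (range 14.9 to 40.2) and 15.9 CPM (range 8.24 to 18.5). Its IVM range was above the GV range (1.44) and its CNP_IVM range overlapped it (0.62).

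XPO4 was at 27.96 CPM (range 18.9 to 38.7) in GV, 16.2 CPM (range 11.2 to 28.3) in IVM and 10.3 CPM (range 3.904 to 18.5) in CNP_IVM oocytes, with the CNP_IVM oocytes below all GV oocytes (-1.39) and IVM under 2-fold (-0.63). XPO6, the exporter of actin, was at 6.11 CPM (range 3.03 to 43.9), 6.52 CPM (range 3.11 to 8.89) and 5.24 CPM (range 3.19 to 7.12). Its IVM log2 difference was -0.79, and -0.0032 without GV replicate 9. Its CNP_IVM log2 difference of -1.01 was -0.23 without GV replicate 9, which held 43.9 CPM, and 0.04 with quantile normalization. It was also under 2-fold without CNP_IVM replicate 2 or 5. XPO7 was under 2-fold in both contrasts, at 0.95 and 0.42, and past it in both with quantile normalization (1.66 and 1.48).

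The comparison of CNP_IVM with IVM asks how the culture with the peptide differed from conventional maturation. Here 1 of 44 members passed 2-fold upward (TNPO2), 6 passed it downward (NUP85, NUP98, NUP93, NUP58, IPO4 and IPO13) and 37 lay between. TNPO2, IPO4 and IPO13 had means under 10 CPM in both groups and are named after their values were seen. Of all genes 1.86% were higher and 14.8% lower, against 2.27% and 13.6% of members, so the members' shares were near the background. The members' median was -0.47 and that of all genes -0.28. Median-ratio scaling moved the median of all genes to -0.10 and the share of higher genes among those past 2-fold from 11.1% to 26.7%, and quantile normalization to 0.0060 and 39.8%. Members then numbered 1 higher and 4 lower, and 3 higher and 4 lower. In 0 of 44 members did all CNP_IVM oocytes lie above all IVM oocytes, against 1.38% of all genes, and in 2 of 44 (NUP85 and NUP107) all lay below, against 2.6%.

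NUP85 had the largest difference of the members that reached a 10 CPM mean, -2.22. It was -1.97 and -1.87 under the other scalings, and -2.36 to -2.09 with each oocyte left out in turn. NUP107 followed with separate ranges as deposited, 368 to 604 CPM in IVM against 157 to 363 CPM in CNP_IVM oocytes, at -0.97, just under 2-fold. With median-ratio scaling it was at -0.75. The nearest oocytes, IVM replicate 3 and CNP_IVM replicate 4, had size factors of 1.07 and 0.84 there, and levels divided by these overlap. NUP160 was at -0.89, with overlap.

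NUP98, NUP93 and NUP58 had wider ranges among IVM than among CNP_IVM oocytes. NUP98 was at 54.5 to 489.8 CPM in IVM and 39.1 to 63.6 CPM in CNP_IVM oocytes, a log2 difference of -1.98. NUP93 was at 65.5 to 423 CPM and 29.5 to 81.02 CPM (-1.60), and NUP58 at 22.6 to 102 CPM and 19.3 to 27.7 CPM (-1.14). For all 3 the highest IVM oocyte was replicate 8 and the lowest replicate 7, whose libraries held 39340040 and 20159662 reads and 10752 and 9431 genes at 1 CPM or more. IVM replicates 6 and 9 held 37030017 and 36384439 reads. They were at 75.5 and 322 CPM for NUP98, 95.1 and 247 CPM for NUP93, and 34.6 and 80.4 CPM for NUP58. The part of depth in these ranges was not tested. Without IVM replicate 8 the differences were -1.64, -1.31 and -0.94, the last under 2-fold. NUP58 was also under 2-fold with median-ratio scaling (-0.88), quantile normalization (-0.79) and group medians (-0.95). For all 3 genes only IVM replicate 7 reached into the CNP_IVM range. Without it the ranges lay apart downward for 5 of 44 members, where all genes gave 3.79%.

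Of the receptors, IPO4 (-1.39) and IPO13 (-1.02) were lower in CNP_IVM oocytes, with overlap, and with 5 CPM added were at -0.69 and -0.45. Both were also under 2-fold with group medians (-0.83 and -0.73) and with quantile normalization (-0.82 and -0.51). With median-ratio scaling IPO4 was at -1.14 and IPO13 at -0.83. IPO13 was under 2-fold without CNP_IVM replicate 3, 4 or 7, or IVM replicate 8, and closest to 0 without the last (-0.44), which held 14.2 CPM against 3.12 CPM or less in the other IVM oocytes. TNPO2 was higher at 1.01, with overlap, and came under 2-fold without IVM replicate 1, 5, 7, 8 or 9 or CNP_IVM replicate 1 or 2 (lowest 0.82). KPNA7 stood at -0.85, KPNA2 at -0.68, KPNB1 at 0.76, XPO1 at 0.79 and NUP62 at 0.66, each with overlapping oocytes. With quantile normalization KPNA7 (-1.01), KPNB1 (1.03) and NUP62 (1.05) passed 2-fold. NUP37 (0.50), KPNA5 (0.44) and NUP35 (0.28) were the other members, of those at 10 CPM or more, with the highest differences.

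**Figure D4:**
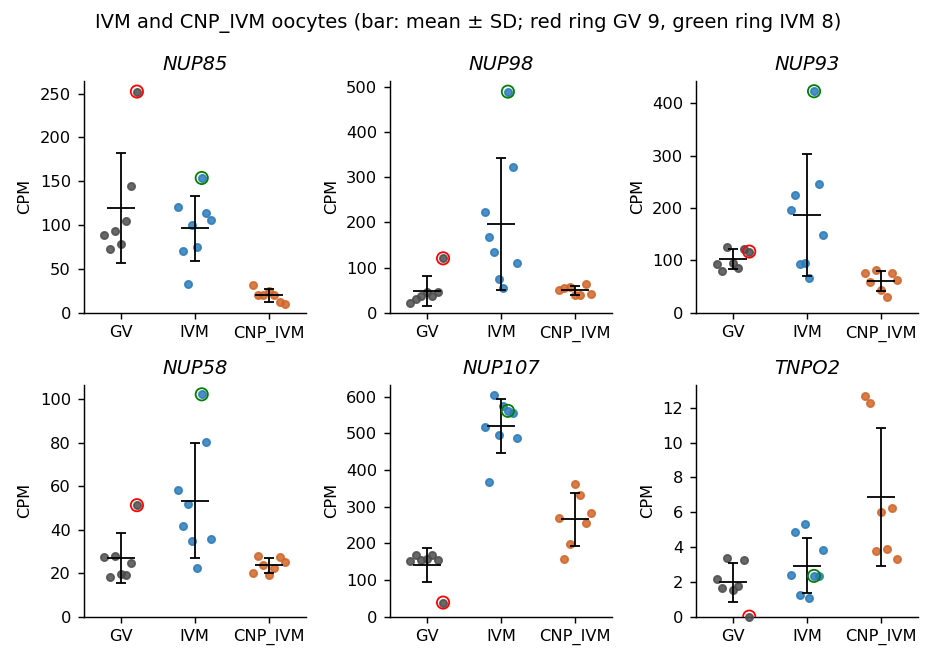
CPM of NUP85, NUP98, NUP93, NUP58, NUP107 and TNPO2 in each oocyte (vertical axis, linear from 0) by group (horizontal axis); each point is 1 oocyte, bars are mean ± SD between oocytes, and rings mark GV replicate 9 (red) and IVM replicate 8 (green). CNP_IVM oocytes lie below all IVM oocytes for NUP85 and NUP107, and IVM replicate 8 is the highest IVM oocyte for NUP85, NUP98, NUP93 and NUP58.

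The order of the 3 group means summarises the members. GV was lowest and IVM highest for 16 of the 44 (36.4%), against 17.7% of all genes. These included NUP107, NUP133, NUP155, NUP160, NUP54, NUP88, NUP98 and KPNA7. GV was lowest and CNP_IVM highest for 7 (15.9% against 15.5%), among them NUP35, NUP37, KPNA3 and XPO1. The order CNP_IVM below IVM below GV held for 13 (29.5% against 41.7%), among them KPNA2, NUP205, NUP50 and IPO4. As given above, CNP_IVM ranges lay apart from IVM ranges upward for 0 of the 44 and downward for 2, against 1.38% and 2.6% of all genes. Downward they numbered 5 (all genes 3.79%) without IVM replicate 7, the oocyte that overlapped for NUP98, NUP93 and NUP58. With CNP_IVM replicate 7 left out, 1 lay apart upward and 4 downward (all genes 2.15% and 3.13%). Between oocytes of a group, the SD was a median 30.3% of the mean in GV, 28.2% in IVM and 27.5% in CNP_IVM over members at 10 CPM or more (33, 30 and 30 genes), against 32.03%, 31.9% and 25.6% over all genes at that level.

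Pore proteins named otherwise behaved in both ways. Counts of this and the following lists of related genes are on the deposited scale and were not recomputed with other scalings. Of 11 such genes 8 were in the table, all past the filter. By at least 2-fold, 3 were higher and 1 lower in each matured group against GV (37.5% and 12.5%). All genes gave 15.9% and 33% for IVM and 15.3% and 42% for CNP_IVM. With GV replicate 9 left out, 5 of the 8 were higher in IVM, NDC1 (1.10) and SEC13 (1.01) being added, where all genes gave 16.4%. AHCTF1 (ELYS), which seeds pore assembly on chromatin, was at 14.6 CPM (range 13.8 to 20.9) in GV, 52.8 CPM (range 36.5 to 71.5) in IVM and 64.9 CPM (range 53.4 to 73.3) in CNP_IVM oocytes. RANBP2, the main protein of the cytoplasmic filaments, was at 44.98 CPM (range 2.53 to 50.4), 110.05 CPM (range 80.6 to 170.1) and 138 CPM (range 114 to 162). For both, all oocytes of the matured groups stood above the GV range. SEH1L, of the Y complex, was at 43.7 CPM (range 20.7 to 54.6), 124 CPM (range 101 to 160.2) and 161 CPM (range 89.6 to 239), likewise apart from GV. AAAS was lower, at 71.4 CPM (range 47.5 to 234), 28.2 CPM (range 8.45 to 44.6) and 7.96 CPM (range 1.796 to 16.5). SEC13, of the Y complex and of vesicle coats, was at 1326 CPM (range 870.4 to 1858) in IVM and 627 CPM (range 499 to 712) in CNP_IVM oocytes, with every CNP_IVM oocyte below every IVM oocyte and a log2 difference of -1.07, or -0.98 without IVM replicate 10.

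Of 13 genes of the Ran cycle and the other receptors, 2 were at least 2-fold higher and 5 lower in IVM against GV (15.4% and 38.5%, where all genes gave 15.9% and 33%). In CNP_IVM against GV 2 were higher and 7 lower (15.4% and 53.8%, where all genes gave 15.3% and 42%), and 6 lower without GV replicate 9. RAN itself was under 2-fold in both (-0.12 and 0.04), as was CSE1L, the exporter that returns importin alpha to the cytoplasm (0.42 and -0.12). NXF1, the messenger RNA export receptor, was at 119.9 CPM (range 51.9 to 147) in GV, 17.2 CPM (range 8.51 to 29.7) in IVM and 5.57 CPM (range 1.73 to 11.7) in CNP_IVM oocytes. SNUPN, the adaptor that imports spliceosomal RNA particles, was at 239 CPM (range 38.99 to 264), 16.6 CPM (range 12.7 to 23.4) and 22.3 CPM (range 11.4 to 27.4). Both lay below the GV range in all matured oocytes. NXT2, a cofactor of NXF1, was higher at 16.3 CPM (range 2.72 to 27.3), 48.004 CPM (range 32.97 to 93.2) and 66.8 CPM (range 31.2 to 113), and XPOT, the exporter of transfer RNA, at 17.3 CPM (range 15.03 to 31.4), 50.1 CPM (range 39.7 to 73.996) and 58.04 CPM (range 36.3 to 73.2).

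In the list of the nuclear envelope and lamina, 17 of 20 genes passed the filter. By at least 2-fold, 4 of them were higher and 5 lower in IVM against GV (23.5% and 29.4%, where all genes gave 15.9% and 33%). In CNP_IVM against GV 2 were higher and 5 lower (11.8% and 29.4%, where all genes gave 15.3% and 42%). With GV replicate 9 left out the counts were 3 and 3, and 3 and 6, where all genes gave 16.4% and 31.7%, and 14.9% and 40.5%. In IVM, CHMP7 was then at -0.31 (from -1.11), EMD at -0.94 (from -1.19) and SYNE2 at 0.90 (from 1.02). LMNA, the A-type lamin, was at 62.5 CPM (range 44.9 to 177) in GV, 16.5 CPM (range 2.61 to 27.2) in IVM and 3.795 CPM (range 2.71 to 7.72) in CNP_IVM oocytes, and TOR1A, an ATPase of the envelope, at 341 CPM (range 225 to 476), 98.2 CPM (range 56.2 to 148) and 78.2 CPM (range 40.9 to 106). NEMP1, an inner membrane protein, was above the GV range, at 44.8 CPM (range 16.6 to 54.7), 120.3 CPM (range 96.6 to 152) and 109 CPM (range 57.6 to 132). BANF1, which gathers chromatin when the envelope reforms, was at 676 CPM (range 287 to 874), 1049 CPM (range 750.2 to 1504) and 1591 CPM (range 1152 to 2191), and its CNP_IVM oocytes were all above GV (1.19). CHMP7, of the machinery that seals the envelope, was at 29.4 CPM (range 17.8 to 185), 16.6 CPM (range 5.8004 to 63.4) and 7.13 CPM (range 1.26 to 13.2). ANKLE2 was at 23.5 CPM (range 18.8 to 52.1), 77.2 CPM (range 28.3 to 224) and 34.95 CPM (range 27.9 to 42.9), and LMNB2 was the gene of this list that was at least 2-fold higher in CNP_IVM than in IVM (1.05, with overlap, and under 2-fold without IVM replicate 3 or 7 or CNP_IVM replicate 1, 2 or 5).

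Of 18 genes of messenger RNA export, 3 were at least 2-fold higher and 6 lower in IVM against GV (16.7% and 33.3%), near the shares of all genes (15.9% and 33%). In CNP_IVM against GV 5 were higher and 7 lower (27.8% and 38.9%, where all genes gave 15.3% and 42%). Without GV replicate 9 the counts were 2 and 6, and 5 and 8, where all genes gave 16.4% and 31.7%, and 14.9% and 40.5%. The helicase genes DDX39A and DDX39B, close paralogs that may share reads, were at 163 CPM (range 95.3 to 185) and 74.99 CPM (range 36.2 to 89.4) in GV oocytes. In IVM they were at 4.701 CPM (range 2.197 to 12.1) and 10.2 CPM (range 4.07 to 21.9), and in CNP_IVM at 1.72 CPM (range 0.262 to 5.66) and 3.81 CPM (range 2.46 to 11.3), with no overlap with GV. THOC2, of the THO complex, was above the GV range at 29.8 CPM (range 1.499 to 35.6), 88.9 CPM (range 52.3 to 113) and 112 CPM (range 84.6 to 171). THOC7 was at 67.5 CPM (range 20.6 to 79.6), 109.6 CPM (range 72.9 to 214) and 317 CPM (range 177 to 379), and its log2 difference of CNP_IVM from IVM was 1.34. ENY2, a small protein of transcription-coupled export, was at 639 CPM (range 364 to 1097) in IVM and 1479 CPM (range 1321 to 2351) in CNP_IVM oocytes, with no overlap (1.19). THOC5 (-1.37) and ALYREF (-1.30) were lower in CNP_IVM than in IVM, with overlap, THOC5 at -0.90 without IVM replicate 8, and ZC3H11A stood at 1.63 in IVM against GV. In CNP_IVM against IVM, 0 genes were higher and 2 lower by at least 2-fold among the 8 other pore proteins, 0 and 3 among the 13 of the Ran cycle, 1 and 4 among the 17 of the envelope, and 3 and 3 among the 18 of messenger RNA export, where all genes gave 1.86% and 14.8%. Each of these counts is of few genes. With each oocyte left out in turn, lower genes of the Ran cycle numbered 2 (without IVM replicate 8 or 9) to 4. Those of the other pore proteins numbered 1 to 2, of the envelope 4 to 5 and of messenger RNA export 2 to 5. Higher genes then numbered 0 to 1 for the envelope and 2 to 3 for messenger RNA export.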

How the data were processed

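Single-oocyte messenger RNA libraries were made from snap-frozen cells with the SMART-Seq v4 kit (cDNA started on poly(A) tails) and Nextera XT, per the labels' protocols. The tools listed in the submitters' processing notes are HISAT2 2.2.1, featureCounts 2.0.1, FastQC, edgeR and Trim Galore 0.6.7. Their roles and order are not given, and the build named is GRCm39, of mouse; the gene names are cattle symbols, and all 45 members are symbols of RefSeq's cattle assembly ARS-UCD2.0. The strand setting of the counting is not given in the sources used here, and no coordinates are given. The deposited values are CPM, although named for TPM: 100% of the values above 0 were whole multiples of 1 step per library (tolerance 0.01 read), from which reads were recovered. Of 29 labelled samples 22 had a column and 7 were not analysed here. No libraries of a group were copies (smallest chi-square per degree of freedom 38.0).

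With each group counted as 1 sample, count tests on the recovered reads were not run. Named genes were the 6 highest and 6 lowest log2 differences per comparison among members whose mean reached 10 CPM, KPNA7, KPNA2, KPNB1, XPO1, NUP98 and NUP62, and up to 2 per direction of each list of related genes; the other members are described by role. Members and lists were chosen with earlier results of these data known. The fold calculation was tested on simulated data. Alternatives were 2 other scalings, 2 pseudocounts, no filter, group medians and leaving out each oocyte. For the lists of related genes only the last was run. Python 3.11.15, numpy 2.4.6, pandas 2.3.3 and scipy 1.17.1 were used.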

Additional observations from a re-analysis of the deposited data

Results flagged for a closer look

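A library was noted where its distance to the nearest other oocyte of its group, as a share of the group's whole range, passed Dixon's 95% limit. Of 135 sets of values (45 genes in 3 groups) 21 passed, and 13 of the 21 were GV replicate 9, the oocyte whose title and treatment label disagree. The limit is set for about 1 in 20 by chance among independent, normally distributed values. These were CPM of genes that share libraries, so that rate is a rough guide only.

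In GV replicate 9 the low values were NUP107 at 38.3 CPM (next lowest 150.9), NUP133 at 12.5 CPM (57.2), NUP153 at 7.06 CPM (67.01), NUP155 at 68.1 CPM (153), NUP43 at 18.2 CPM (50.1) and NUP54 at 70.7 CPM (166). The high values of the same oocyte were NUP85 at 252 CPM (next highest 144.8), NUP98 at 120.4 CPM (46.1), NUP58 at 51.2 CPM (27.9), XPO6 at 43.9 CPM (12.01), KPNB1 at 29.5 CPM (6.20), KPNA4 at 22.2 CPM (1.44) and IPO7 at 14.1 CPM (2.0002). Of these, NUP85, XPO6, KPNB1, KPNA4 and IPO7 exceeded every other oocyte of the 3 groups.

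IVM replicate 8 was high for IPO13 at 14.2 CPM (next highest 3.12), KPNA6 at 12.5 CPM (7.20) and KPNB1 at 11.1 CPM (7.29). IVM replicate 9 was high for NUP210 at 4.56 CPM (1.80) and IPO8 at 1.18 CPM (0.548). GV replicate 6 was high for IPO8 at 1.44 CPM (0.175), CNP_IVM replicate 2 for NUP188 at 21.9 CPM (11.7) and CNP_IVM replicate 5 for XPO7 at 12.5 CPM (5.44).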

How the results depend on the processing

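No paired analysis was possible because no result comes from a test and the oocyte numbers mark no shared animal or culture. Of the recomputed counts and medians of members 173 stayed within 1.5 times the count, or within the spread between oocytes, and 22 did not. In IVM against GV, quantile normalization gave a median of 0.95, and leaving out each oocyte gave medians of 0.38 to 0.68 and counts of lower members of 4 to 8, the highest without IVM replicate 8. In CNP_IVM against GV, the median was 0.34 with median-ratio scaling, 0.88 with quantile normalization and 0.41 with group medians; quantile normalization gave 21 higher and 4 lower members, and a pseudocount of 5 CPM gave 7 lower. In CNP_IVM against IVM, the median was -0.28 with median-ratio scaling and -0.11 with quantile normalization. Higher members there numbered 3 with quantile normalization, 0 with a pseudocount of 5 CPM and 0 to 1 with each oocyte left out, and lower members 3 with group medians. With GV replicate 9 and IVM replicate 8 both left out, chosen after seeing the data, 0 were higher. The causes were not tested beyond the settings themselves. Differences near 2-fold also passed it when 1 oocyte was left out: in IVM against GV, KPNA5 (GV 4, 6 or 9 or IVM 8, 9 or 10), NUP58 (GV 9 or IVM 3, 6, 7 or 10) and XPO7 (GV 1 or 7 or IVM 3, 6 or 7); in CNP_IVM against GV, IPO11 (GV 6), NUP43 (GV 1, 4 or 6 or CNP_IVM 1, 2 or 3) and NUP214 (GV 1, 2, 4 or 7 or CNP_IVM 4); in CNP_IVM against IVM, NUP107 (IVM 3 or CNP_IVM 4 or 5) and NUP160 (CNP_IVM 7). Members near 1 CPM, such as NUP210, KPNA4 and IPO8, are limited by reads and by the pseudocount.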
